A study of Oryza sativa Japonica Group with 74 samples.

Results

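The gene set described here holds 148 rice genes whose wild-type transcript level was highest 10 hours after lights on (ZT10) in both long and short days. The members were chosen by measured values. From the deposited table of TPM (the abundance of a transcript scaled for its length and for the depth of the library), the mean of the wild-type libraries was taken at each of 6 times. Of 37849 genes, 1182 had their highest mean at ZT10 in both day lengths with at least 10 TPM there. The 150 with the largest swing were kept, the swing being the smaller of the LD and SD log2((highest + 1)/(lowest + 1)), and 2 of these were dropped as genes that the rule names, leaving 148. The swing of the members ran from 2.83 to 6.69 with a median of 3.70. The last genes inside were Os03g0170100, Os01g0872500 and Os01g0833000 at 2.86, 2.85 and 2.83, and the first outside were Os06g0347966, Os09g0457100 and Os02g0229400 at 2.83, 2.82 and 2.82.

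The study asked how the Evening Complex carries day-length information to flowering in rice. It sequenced mRNA from plants 21 days old, described as whole plants. The wild type was the Japonica cultivar Nipponbare (WT). The mutants were labelled OsphyB-/- (phyb below), Oself3-1 -/- Oself3-2 -/- (elf3 below) and OsLUX-/- (lux below), with the kind of mutation and the number of independent lines not stated in the labels. Long days (LD) had 14 h of light and 10 h of darkness, and short days (SD) had 10 h of light and 14 h of darkness. The wild type was sampled at ZT2, ZT6, ZT10, ZT14, ZT18 and ZT24 in both day lengths, phyb and elf3 at ZT6, ZT14 and ZT18 in both, and lux at ZT14 in SD alone. ZT14 is therefore the end of the light period in LD and 4 h into darkness in SD, and ZT10 is the end of the light period in SD.

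Plants time transcription with a circadian clock, a set of transcription factors that repress each other in turn through the day. The Evening Complex, known best from Arabidopsis, joins ELF3, ELF4 and the DNA-binding protein LUX, and represses its target genes in the evening and at night. Phytochrome B is a red-light receptor through which light reaches many of the same genes. The deposited tables give gene identifiers without names, and none of the 148 identifiers was found in the RefSeq gene table used here, so the members are described by identifier and no function is assigned to them. Of 21 clock and flowering genes of a hand list, 2 passed the selection, at ranks 1 and 5 of the 150, and are the genes that were dropped by name, so that none of the list is a member.

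The rule left out 17 libraries, and they are left out of every value below unless stated: replicate 1 at ZT6 and ZT14 in WT, phyb and elf3, and for WT also replicate 1 of ZT10 and replicate 3 of ZT2 and of ZT24. The distance to a group was the root mean square difference from its kept libraries. Of those left out, all 11 at ZT6 and ZT14 and both at ZT10 lay nearer to another group than to their own. So did 3 of 4 at ZT2 and ZT24, but none of the 57 kept libraries. The exception, WT ZT2 LD replicate 3, lay at 0.488 from its own group, with its kept replicates at 0.461. It was left out by the rule alone. The kept elf3 ZT6 LD replicate 3 was close to a tie, at 0.73 from its own group and 0.732 from WT ZT6 LD. On a scale from 0 (other genotypes) to 1 (phyb) set by 146 marker genes at ZT18, the left-out wild-type libraries at ZT6 and ZT14 sat at 0.909 to 1.0 and the kept ones at 0. The column of elf3 at ZT14 LD replicate 1 belongs to no labelled library and equals the mean of the other 2 in all 37849 genes within 0.5 counts; it was not used. The kept libraries held 25660600 to 51798162 counts, 18 groups have 2 libraries and 7 have 3. The labels do not say whether replicates came from separate plants, so the p-values measure the spread between these libraries. RNA of many cell types together cannot tell fewer cells of a type from less RNA per cell. The root marker RCc3 was at 0 TPM in every kept WT, phyb and elf3 library, so these libraries do not show that roots were included.

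In wild type the members were highest at ZT10 by the rule, and the fall after it differed between day lengths. The median ZT10 level was 69.1 TPM in LD (range 10.3 to 3474) and 105 TPM in SD (range 15.9 to 4000). As a share of each gene's own ZT10 mean, the median in LD was 7.39% at ZT2, 36.9% at ZT6, 66.2% at ZT14, 22.6% at ZT18 and 6.47% at ZT24. In SD it was 5.79% at ZT2, 40.6% at ZT6, 22.1% at ZT14, 10.4% at ZT18 and 3.79% at ZT24. The second highest time in LD was ZT14 for 109 members, ZT2 for 20 and ZT6 for 19. In SD it was ZT6 for 87 members, ZT14 for 46, ZT24 for 11, ZT2 for 3 and ZT18 for 1. The trough lay at ZT2 or ZT24 for 134 members in LD and 129 in SD. These shares describe the measure that chose the members and carry no test.

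**Figure D1:**
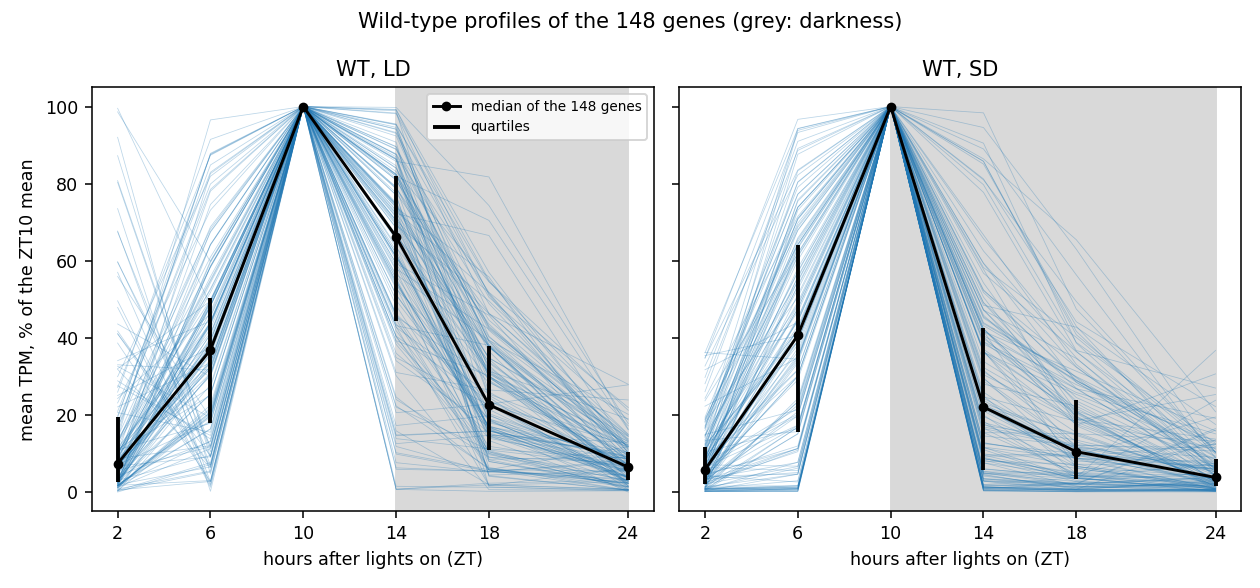
Wild-type profiles in LD (left) and SD (right): the mean TPM of each of the 148 genes as a percentage of its ZT10 mean (vertical axis) against hours after lights on (horizontal axis). Thin lines are genes, black points are medians, bars are quartiles and grey marks darkness; at ZT14 the median is 66.2% in LD and 22.1% in SD.

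The members held more than 1 kind of profile. Os07g0628900 had the largest swing, 6.69. In LD its kept wild-type libraries held 1.69 and 1.78 TPM at ZT24, 52.4 and 57 at ZT6, 290.1 and 273 at ZT10, 201 and 192 at ZT14 and 41.7, 36.2 and 34.8 at ZT18. In SD they held 1.1 and 1.68 TPM at ZT24, 66.8 and 60.2 at ZT6, 275 and 265 at ZT10, 57.3 and 63.2 at ZT14 and 18.9, 17.9 and 18.1 at ZT18. The ZT10 libraries of LD and SD overlapped, while every LD library at ZT14 and ZT18 was above every SD library at the same time. Its neighbour Os07g0628700, the next gene in the table, is also a member, and their log2 TPM correlated with r = 0.978 over the 57 kept libraries. The most abundant member was Os01g0303000, with 3412 and 3537 TPM at ZT10 LD and 4119 and 3880.0 TPM at ZT10 SD. It fell to 193 and 211 TPM at ZT24 LD and 126 and 129 TPM at ZT24 SD. In LD its ZT14 libraries held 3215 and 3409 TPM, close to the ZT10 level, and in SD 848 and 993 TPM, about the level of the LD night.

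The other kind of profile belongs to the 20 members whose second highest LD mean was at ZT2. Their median ZT2 level in LD was 58.4% of the ZT10 mean, with 6.92% at ZT6 between the peaks, against 6.06% at ZT2 and 39.4% at ZT6 in the other 128. In SD the same 20 had a median of 0.84% at ZT2, and their ZT10 mean in SD was 3.78 times that in LD (median), against 1.16 times for the other members. Os09g0522000 held 21.6 and 50.1 TPM at ZT2 LD, 0.962 and 0.874 at ZT6 LD, 69.7 and 80 at ZT10 LD and 0.453 and 1.78 at ZT14 LD. In SD it held 0.309 and 1.15 TPM at ZT2, 0.615 and 0.776 at ZT6, 445 and 430.1 at ZT10 and 3.59 and 0.599 at ZT14. Outside ZT10 no kept SD library of this gene was above 3.59 TPM. These 20 genes were singled out after their values were seen, and their level depends on which libraries are kept. The left-out replicate 1 at ZT10 LD held a median of 7.03% of the kept mean for them, below 10% in 15 of the 20, and 51.1% for the other members, below 10% in 6 of the 128. For Os09g0522000 the left-out libraries held 0.607 TPM at ZT10 LD, 95.7 TPM at ZT10 SD, 38.5 TPM at ZT2 LD and 36.1 TPM at ZT2 SD. Over all members, the median in the left-out ZT10 libraries was 46.7% of the kept mean in LD and 77.8% in SD. With every library kept under its label, 108 of the 148 would still be chosen.

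By identifier, 33 members lie on chromosome 1, 24 on chromosome 3 and 21 on chromosome 2. Chromosome 1 carries 22.3% of the members, 13.9% of all genes in the table and 14.4% of the genes that reach 10 TPM in any kept library. In the table, 10 pairs of members have at most 4 genes between them. In 3 pairs they are next to each other: Os07g0628700 and Os07g0628900, Os03g0371300 and Os03g0371350, and Os03g0371350 and Os03g0371400. The log2 TPM of the last 2 pairs correlated with r = 0.993 and 0.992 over the 57 libraries. The strand setting of the counting is not given in the sources used here, so reads of overlapping neighbours cannot be told apart, and these 3 genes may not be separate observations. Over the 10 pairs r ran from 0.409 to 0.993; these correlations share libraries, depth and time of day and are descriptions.

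The selection sets no condition on the difference between day lengths, but the same wild-type libraries chose the members, so the counts that follow describe the chosen genes. At ZT10 74 members were lower in LD than in SD and 4 were higher, out of 148 (edgeR quasi-likelihood test, Benjamini-Hochberg adjusted over 28905 genes, threshold 0.05). Of all tested genes 6.33% and 10.3% were higher and lower. The median log2 difference of the members was -0.44, with 130 of 148 negative. Os01g0597600 held 40.1 and 43.7 TPM at ZT10 LD and 646 and 644 TPM at ZT10 SD, a log2 difference of -4.09 ± 0.41, adjusted p = 1.58e-09. Os01g0186900 held 108 and 117 TPM in LD and 1026 and 1082 TPM in SD (-3.37 ± 0.39, adjusted p = 3.65e-08). The groups of both genes were far apart, and the left-out libraries of Os01g0186900 held 1.47 TPM in LD and 187 TPM in SD. Of the 20 members with a second LD peak at ZT2, 18 were lower in LD at ZT10. The 4 members higher in LD were the neighbours Os03g0371300, Os03g0371350 and Os03g0371400, and Os02g0186800, by 0.39 to 0.62 on the log2 scale. With all 74 libraries under their labels 6 members passed at ZT10.

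At ZT14 the order turned: 103 members were higher in LD than in SD and 6 lower, against 20.6% and 20.5% of all tested genes. The median log2 difference was 1.04 with 126 of 148 positive. In all, 49 members were both among the 74 lower in LD at ZT10 and among the 103 higher in LD at ZT14. The same overlap was not counted over all tested genes. Os04g0482300 held 88.1 and 82 TPM at ZT14 LD and 1.97 and 1.11 TPM at ZT14 SD, a log2 difference of 5.79 ± 0.36, adjusted p = 1.08e-15. Os11g0547800 held 20.3 and 21.9 TPM in LD and 0.683 and 0.453 TPM in SD (5.15 ± 0.35, adjusted p = 2.86e-15). Both kept an LD level near that of ZT10. In SD the ZT14 mean was the lowest of the 6 times for Os04g0482300, and for Os11g0547800 it was the second highest, at 0.57 TPM against 40.1 TPM at ZT10 and 0.046 TPM at ZT24. Among the 6 members lower in LD, Os06g0708700 and Os08g0191900 differed most among those whose libraries did not overlap, by -1.13 ± 0.16 and -0.88 ± 0.18. At ZT18, darkness in both day lengths, 77 members were still higher in LD and 2 lower, against 17.6% and 17.7% of all tested genes, with a median log2 difference of 0.52. Os01g0389700 differed most, with 6.76, 8.37 and 9.15 TPM in LD and 0.951, 0.888 and 0.444 TPM in SD (3.30 ± 0.54, adjusted p = 8.09e-06). With every library under its label 75 members passed at ZT14 and 18 at ZT18.

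The mutants were not used to choose the members, but each mutant comparison takes its wild-type side from libraries that were. The difference between LD and SD within a mutant is free of that. At ZT14 105 members were higher in LD than in SD in elf3 and 11 lower, against 19.5% and 20% of all tested genes, with a median log2 difference of 0.83. In phyb 93 were higher and 10 lower, against 16.3% and 17.8% of all tested genes, with a median of 0.79. The LD excess at ZT14 was therefore present in all 3 genotypes sampled in both day lengths. In both WT and elf3 88 members had it, of 103 and 105, and in both WT and phyb 84, of 103 and 93. These overlaps were not counted over all tested genes, so they do not show a sharing particular to the set. Os01g0606900 held 21.4 and 41.7 TPM at ZT14 LD and 1.95 and 1.29 TPM at ZT14 SD in elf3, a log2 difference of 4.29 ± 0.31, adjusted p = 2.87e-14. In phyb it held 42.2 and 45.3 TPM and 1.22 and 1.06 TPM (5.39 ± 0.33, adjusted p = 1.71e-16). Its LD and SD libraries were far apart in WT too, at 40 and 47.7 TPM and 1.7 and 0.756 TPM. Across the 148 genes the LD minus SD differences of WT and phyb correlated with Pearson's r = 0.768 and Spearman's rho = 0.692, and those of WT and elf3 with r = 0.436 and rho = 0.518. Genes are not independent replicates, and these values are descriptions. In elf3 4 members passed when every library was taken under its label.

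**Figure D2:**
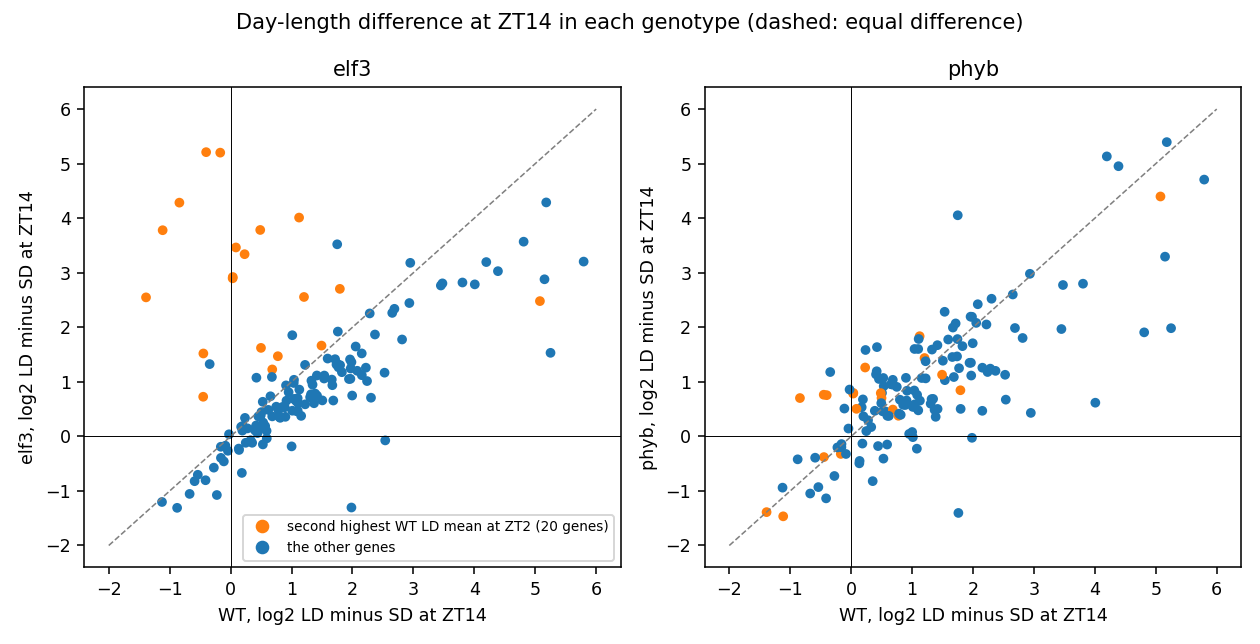
The log2 difference LD minus SD at ZT14 of each of the 148 genes in a mutant (vertical axis; elf3 left, phyb right) against that in WT (horizontal axis), with the line of equal difference dashed. Most genes are positive on both axes, and the 20 genes with a second LD peak at ZT2 (orange) lie mostly above the line in elf3, with a median of 2.80 there and 0.16 in WT. These 20 were picked by WT LD means that include ZT14, so their low WT value was part of the choice.

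A test of the difference between genotypes found fewer genes. For elf3 against WT, the LD minus SD difference at ZT14 was larger in 10 members and smaller in 17, against 0.713% and 0.92% of all tested genes. Os01g0186900 had the largest positive value, 5.61 ± 0.69, adjusted p = 2.57e-06. At ZT14 LD it held 82.9 and 169.5 TPM in elf3 and 7.07 and 10.1 TPM in WT, and at ZT14 SD 3.22 and 3.47 TPM and 14 and 8.83 TPM. Only its elf3 LD libraries stood high. Os02g0677300, Os09g0522000 and Os04g0684900 followed at 5.37, 5.13 and 3.38. Of the 10 members with a larger difference, 9 belong to the 20 with a second LD peak at ZT2. The choice of those 20 used the WT libraries of ZT14 LD, which also enter this test, so the overlap is a description. Among the members with a smaller difference, Os02g0115700 held 786 and 1017 TPM at ZT14 LD and 964 and 909 TPM at ZT14 SD in elf3. In WT it held 988 and 1048 TPM and 179 and 168 TPM (-2.61 ± 0.31, adjusted p = 9.26e-07). The elf3 libraries of LD and SD overlapped for this gene, while those of WT were far apart. Os05g0555600 went further: in elf3 it was lower in LD than in SD, at 17.5 and 25.7 and 53.2 and 51.7 TPM, and in WT higher, at 31.2 and 33.5 and 7.48 and 8.58 TPM.

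For phyb against WT the LD minus SD difference at ZT14 was larger in 7 members and smaller in 29, against 7.22% and 5.72% of all tested genes. Os01g0313300 held 2.44 and 3.16 TPM at ZT14 LD and 2.6 and 1.53 TPM at ZT14 SD in phyb, and 19.7 and 18 TPM and 1.76 and 0.637 TPM in WT (-3.39 ± 0.71, adjusted p = 7.59e-04). The WT libraries differed strongly between day lengths and the phyb libraries overlapped. Os02g0162600 went the other way, with 65.9 and 72.2 TPM and 3.7 and 5.51 TPM in phyb and 36.3 and 44 TPM and 15.5 and 8.57 TPM in WT (2.30 ± 0.35, adjusted p = 7.66e-06). In these interaction tests the count for elf3 was 10 without WT ZT14 SD replicate 2, 15 without elf3 ZT14 SD replicate 2 and 16 without WT ZT14 LD replicate 3. That for phyb was 19 without phyb ZT14 LD replicate 2, 23 without phyb ZT14 SD replicate 3, 20 without WT ZT14 LD replicate 3 and 21 without WT ZT14 SD replicate 3. With every library under its label edgeR called no member in either, with 47 and 4 at an unadjusted p under 0.05.

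In elf3 the members called at ZT18 SD were all higher than in WT. There 62 members were higher and 0 lower by edgeR, against 5.79% and 3.6% of all tested genes. At an unadjusted p under 0.05 the count of lower members was also 0, and by DESeq2 78 were higher and 0 lower. The median log2 difference was 0.46 with 136 of 148 positive. At ZT18 LD 34 were higher and 5 lower, against 7.77% and 6.1% of all tested genes, with a median of 0.10 and 95 of 148 positive. Of the 34, 28 were also among the 62 of SD, an overlap not counted over all tested genes. The median level of the set at ZT18 SD was 14.2%, 19.7% and 16.4% of the WT ZT10 mean in the 3 elf3 libraries and 10.3%, 9.94% and 11.0% in the 3 WT libraries, with no overlap. At ZT18 LD it was 29.2%, 26.3% and 23.6% in elf3 and 21.7%, 22.1% and 23.1% in WT.

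**Figure D3:**
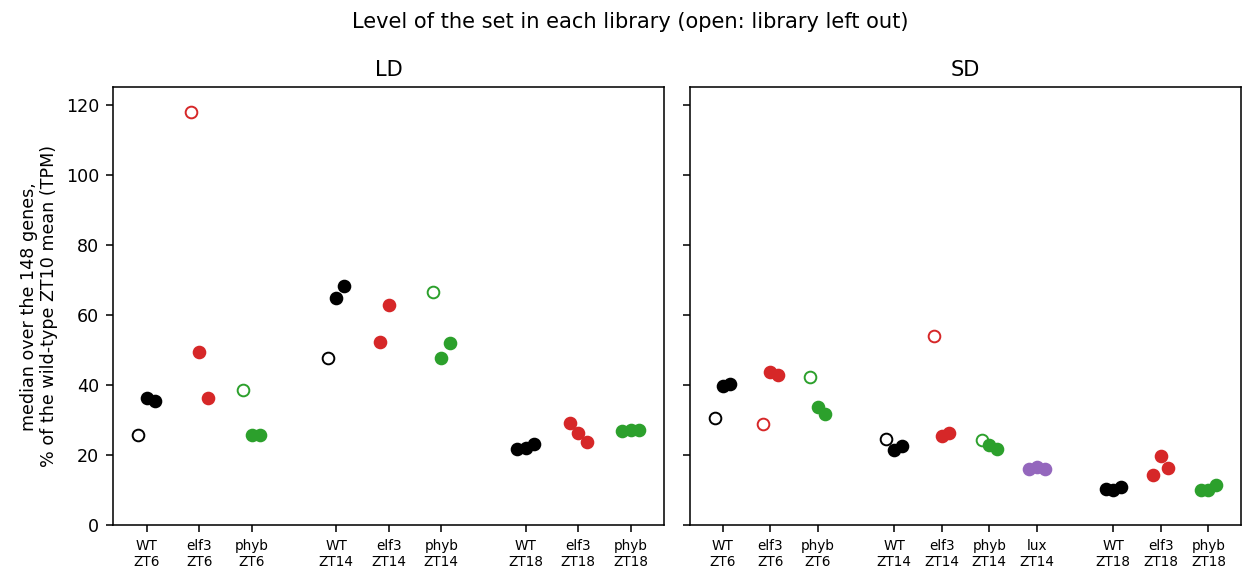
Median over the 148 genes of the TPM as a percentage of the wild-type ZT10 mean of the same day length (vertical axis), 1 point a library, by genotype and time in LD (left) and SD (right); open points are libraries left out. At ZT18 SD the 3 elf3 libraries sit at 14.2% to 19.7% and the 3 WT libraries at 9.94% to 11.0%.

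Os09g0287000 had the largest rise in elf3 at ZT18 in both day lengths. It held 41.3, 31.4 and 8.81 TPM in elf3 and 0.879, 0.517 and 0.474 TPM in WT at ZT18 LD, a log2 difference of 5.42 ± 0.57, adjusted p = 1.49e-08. At ZT18 SD the values were 4.29, 16.2 and 7.66 TPM and 0.353, 0.376 and 0.511 TPM (4.51 ± 0.69, adjusted p = 1.80e-05). The groups did not overlap at either, though the elf3 libraries varied among themselves. Os02g0115700, among the most abundant members at ZT10 with 1859.8 and 1810.1 TPM in WT LD, held 509, 966 and 831 TPM at ZT18 SD in elf3 and 53.3, 41 and 48.7 TPM in WT (4.03 ± 0.20, adjusted p = 1.60e-17). In elf3 its level at ZT18 SD overlapped that at ZT6 SD, 895 and 1084 TPM. Os05g0555600 held 13.1, 39.3 and 27.1 TPM in elf3 and 2.17, 1.35 and 2.1 TPM in WT at ZT18 SD (3.83 ± 0.37, adjusted p = 1.39e-09). Os11g0130200 held 3.28, 7.28 and 4.2 TPM and 0.666, 0.589 and 0.54 TPM (3.04 ± 0.42, adjusted p = 2.03e-06), which is still far below its WT ZT10 libraries of 107 and 130.0 TPM. Os08g0249000 was higher at ZT18 LD, with 31.7, 25.3 and 8.47 TPM in elf3 and 1.56, 1.81 and 1.73 TPM in WT (3.62 ± 0.35, adjusted p = 1.65e-09). Of the 5 members lower in elf3 at ZT18 LD, Os04g0223500 changed most among those without overlap, by -1.05 ± 0.32.

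At the other times the elf3 differences went both ways. At ZT6 LD 25 members were higher and 9 lower, against 3.22% and 2.17% of all tested genes, and at ZT6 SD 22 were higher and 31 lower, against 8.98% and 10.4%. At ZT14 LD 15 were higher and 19 lower, against 2.75% and 1.34%, and at ZT14 SD 15 were higher and 2 lower, against 3.77% and 1.93%. The median log2 difference was 0.13, -0.12, -0.27 and 0.03 in that order. Of the 15 higher at ZT14 LD, 14 belong to the 20 members with a second LD peak at ZT2. Those 20 were picked by a WT LD mean lower at ZT14 than at ZT2. The WT side of this comparison was thus part of the choice, and the overlap is a description. Os02g0677300 held 9.36 and 15.2 TPM at ZT14 LD in elf3 and 0.186 and 0.455 TPM in WT (5.20 ± 0.37, adjusted p = 1.73e-13). At ZT10 LD the WT libraries of this gene held 53.7 and 39 TPM, so the elf3 level at ZT14 lay between the WT levels of ZT10 and ZT14. Os11g0547800 and Os12g0601800 were higher in elf3 in 5 of the 6 conditions, the most of any member; neither passed at ZT14 LD. At ZT6 SD Os11g0547800 held 6.66 and 5.27 TPM in elf3 and 0.547 and 0.491 TPM in WT (3.31 ± 0.45, adjusted p = 8.71e-07). Os12g0601800 held 28.8 and 13.6 TPM at ZT6 LD in elf3 and 6.26 and 6.84 TPM in WT (1.59 ± 0.24, adjusted p = 2.49e-05). Among the members lower at ZT6 SD, Os09g0400000 changed most, with 35.7 and 69.5 TPM in elf3 and 117 and 131 TPM in WT (-1.42 ± 0.19, adjusted p = 1.49e-06). Over the 6 conditions 88 members were higher in elf3 at least once, 50 were lower at least once, 26 of them both, and 60 were never higher. The same counts were not made over all tested genes. In single conditions 2.75% to 8.98% of these were higher and 1.34% to 10.4% lower.

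The elf3 counts depend on the libraries. With every library under its label the counts of members called were 66 at ZT6 LD, all higher, 0 at ZT6 SD (12 at an unadjusted p under 0.05) and at ZT14 LD (9), 4 at ZT18 LD and 8 at ZT18 SD. Leaving out 1 library moved the count at ZT6 LD to 8 (elf3 replicate 2), 11 (WT replicate 3) or 22 (WT replicate 2), and at ZT6 SD to 27 (WT replicate 2) or 29 (elf3 replicate 2). At ZT14 LD it fell to 15 (WT replicate 3) or 18 (elf3 replicate 2), at ZT14 SD to 10 (elf3 replicate 2), and at ZT18 LD to 22 without elf3 replicate 1 or without WT replicate 2. At ZT18 SD it stayed between 45 and 68. Where 1 library of a group remained, its spread was taken from the other groups.

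**Figure D4:**
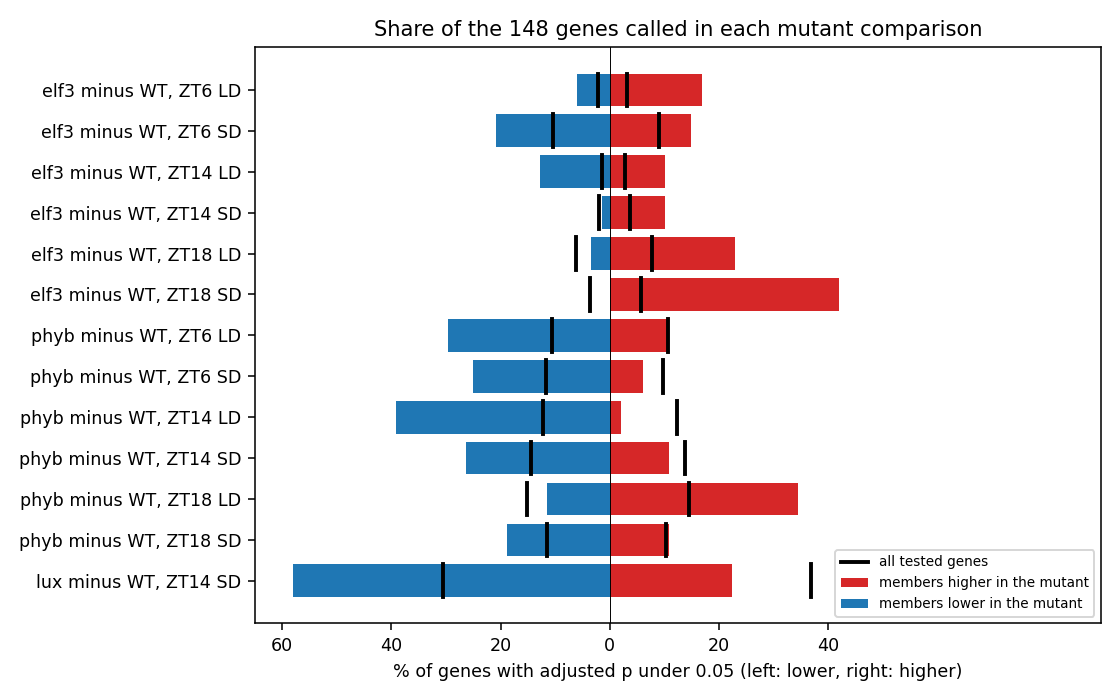
Percentage of the 148 genes with an adjusted p under 0.05 in each mutant comparison (horizontal axis; red, higher in the mutant; blue, lower), with black ticks for the same percentage over all tested genes. The share higher in elf3 at ZT18 SD is 41.9% against 5.79% of all genes, and the share lower in phyb at ZT14 LD is 39.2% against 12.2%.

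In phyb more members were called lower than higher against WT at ZT6 and ZT14. At ZT14 LD 58 were lower and 3 higher, against 12.2% and 12.4% of all tested genes, with a median log2 difference of -0.28. At ZT6 LD 44 were lower and 16 higher, against 10.5% and 10.7%, and at ZT6 SD 37 were lower and 9 higher, against 11.7% and 9.69%. At ZT14 SD 39 were lower and 16 higher, against 14.4% and 13.8%. At ZT18 LD the balance turned, with 51 higher and 17 lower, against 14.5% and 15.1%. Among these 51 were 18 of the 58 lower at ZT14 LD, an overlap not counted over all tested genes. At ZT18 SD 16 were higher and 28 lower, against 10.3% and 11.5%, shares near those of all genes on the higher side. The median level of the set at ZT14 LD was 47.7% and 51.9% of the WT ZT10 mean in the phyb libraries and 64.9% and 68.2% in WT. At ZT18 LD it was 26.9%, 27.1% and 27.2% in phyb and 21.7%, 22.1% and 23.1% in WT, again without overlap.

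Os01g0757200, Os02g0574100 and Os09g0530275 were lower in phyb in all 6 conditions. Os02g0574100 held 6.17 and 5.13 TPM at ZT6 LD in phyb and 29.4 and 25.3 TPM in WT (-2.21 ± 0.19, adjusted p = 2.70e-11). At ZT14 LD the values were 3.63 and 5.05 TPM and 17.9 and 17 TPM, and at ZT18 LD 1.27, 1.15 and 1.28 TPM and 4.03, 4.7 and 4.49 TPM. No phyb library of this gene reached a WT library of the same time and day length. Os01g0757200 held 2.29 and 2.68 TPM at ZT14 SD in phyb and 20.5 and 15.5 TPM in WT (-2.97 ± 0.40, adjusted p = 4.71e-07). Os01g0389700 changed most at ZT6, with 0.419 and 0.897 TPM in phyb and 9.56 and 11.7 TPM in WT at ZT6 SD (-3.94 ± 0.63, adjusted p = 9.89e-06). Os09g0287000, the gene with the largest rise in elf3 at ZT18, was lower in phyb at ZT14 LD, at 3.01 and 2.48 TPM against 30.9 and 30.7 TPM (-3.42 ± 0.50, adjusted p = 2.78e-06). Os05g0555600 was lower there too, at 4.61 and 6.64 TPM against 31.2 and 33.5 TPM (-2.47 ± 0.38, adjusted p = 5.77e-06). In the other direction, Os03g0766600 held 5.15 and 6.38 TPM at ZT14 SD in phyb and 0.896 and 0.862 TPM in WT (2.58 ± 0.42, adjusted p = 8.34e-06). Os01g0656200 and Os03g0371300 were higher in phyb in 5 of the 6 conditions, all but ZT14 LD. Os03g0371300 held 64.1 and 68.9 TPM at ZT6 SD in phyb and 28 and 30.2 TPM in WT (1.19 ± 0.17, adjusted p = 2.06e-06), a level above its own WT peak at ZT10 SD of 34 and 31.7 TPM. Over the 6 conditions 98 members were lower in phyb at least once, 64 were higher at least once, and 35 were both. The same counts were not made over all tested genes. In single conditions 10.5% to 15.1% of these were lower and 9.69% to 14.5% higher, so the pooled counts say nothing particular about the members.

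With every library under its label edgeR called no member in phyb against WT except 7 at ZT18 LD. At an unadjusted p under 0.05 the counts were 0 at ZT6 LD, 3 at ZT6 SD, 2 at ZT14 LD and 6 at both ZT14 SD and ZT18 SD. Leaving out 1 library moved the count at ZT6 LD from 60 to 38 (phyb replicate 2), at ZT6 SD from 46 to 28 (phyb replicate 2) or 29 (phyb replicate 3), and at ZT14 LD from 61 to 34 (phyb replicate 2). At ZT14 SD it moved from 55 to 24 (WT replicate 3), 31 (phyb replicate 3) or 32 (phyb replicate 2), and at ZT18 SD from 44 to 29 (WT replicate 2). At ZT18 LD it ran from 51 to 60 against 68.

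**Figure D5:**
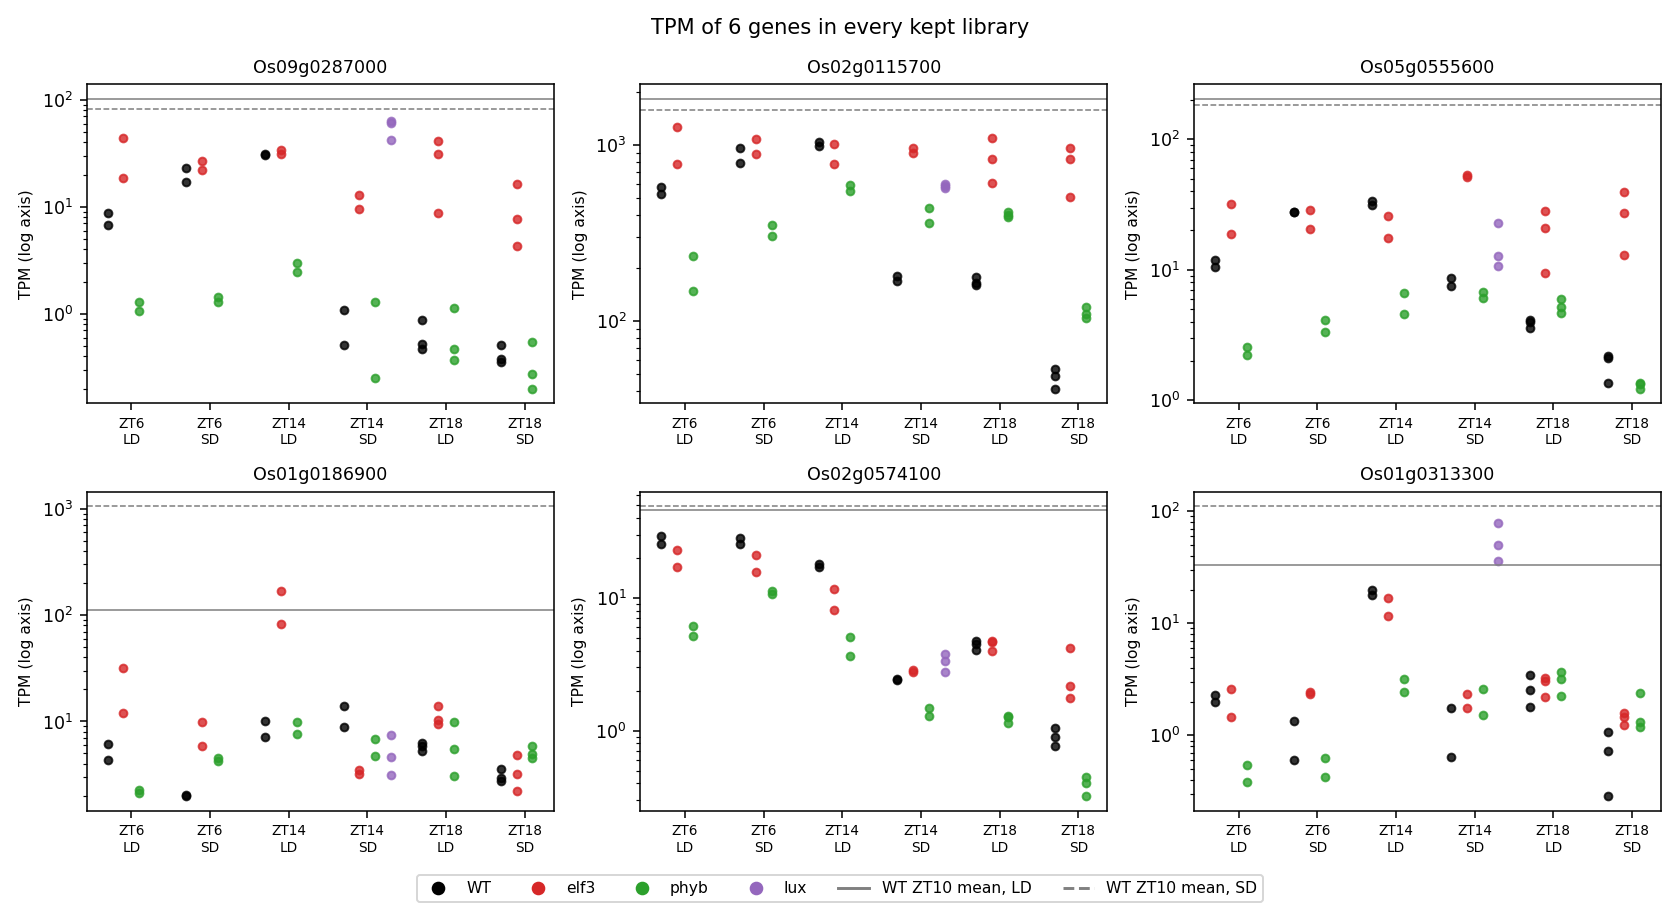
TPM (log axis) of 6 genes in every kept library at ZT6, ZT14 and ZT18, 1 point a library, with the mean wild-type ZT10 level of LD (solid line) and SD (dashed line). Os09g0287000 and Os02g0115700 stand higher in elf3 (red) than in WT (black) at ZT18, and Os02g0574100 stands lower in phyb (green) at each time.

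Within each mutant the fall of the set from day to night can be read without WT. In elf3 114 members were lower at ZT18 than at ZT6 in SD and 5 higher, against 20.4% and 20.2% of all tested genes. In LD 86 were lower and 9 higher, against 14.8% and 16.1%. In phyb 112 were lower and 10 higher in SD, against 20.4% and 22.3%, and 59 were lower and 33 higher in LD, against 17.9% and 21.3%. The median log2 difference was -1.15 in SD and -0.64 in LD in elf3, and -1.67 and -0.30 in phyb. Both mutants shared 100 of the 114 and 112 members lower at ZT18 SD, an overlap not counted over all tested genes. Os11g0130200 fell furthest in phyb SD, from 50.6 and 59.4 TPM at ZT6 to 0.296, 0.493 and 0.326 TPM at ZT18 (-7.54 ± 0.33, adjusted p = 1.24e-20). In elf3 SD it fell from 85.3 and 78.5 TPM to 3.28, 7.28 and 4.2 TPM (-4.11 ± 0.22, adjusted p = 1.19e-17). Its WT SD means fell too, from 106 TPM at ZT6 to 0.598 TPM at ZT18. Among the members higher at night in phyb LD, Os05g0591900 held 448, 416 and 443 TPM at ZT18 and 69.6 and 73.7 TPM at ZT6 (2.25 ± 0.15, adjusted p = 3.35e-15). The WT LD means of this gene also rose, from 141 TPM at ZT6 to 420 TPM at ZT18. WT was not tested between these times. The count in phyb LD was 58 when every library was taken under its label.

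In lux, sampled at ZT14 SD alone, 86 members were lower than in WT and 33 higher. Of all tested genes 36.8% and 30.5% were higher and lower, so more tested genes differed between these groups than did not. The median log2 difference of the members was -0.67 and that of all tested genes 0.08. The set stood at 16.1%, 16.7% and 16.1% of the WT ZT10 mean in the lux libraries and at 21.4% and 22.6% in WT. Tissue markers differed beside it. RCc3, a root marker, held 162 to 200.2 TPM in the 3 lux libraries and was at 0 in every kept library of WT, phyb and elf3. OSH1, a meristem marker, held 5.95 to 8.13 TPM in lux and was at 0 in the kept WT libraries of ZT14. RBCS, a leaf photosynthesis gene, held 975 to 1369 TPM in lux. In the kept WT libraries of ZT14, LD and SD together, it held 3187 to 5840 TPM. The photosynthesis genes CAB1R and CAB2R did not fall in the same way. CAB1R held 514 to 614 TPM in lux and 3.51 to 917 TPM in those WT libraries. CAB2R held 688 to 814 TPM in lux and 91.0 to 686 TPM in them. The part of tissue in the lux differences was not tested. Os09g0287000 held 60.6, 63.8 and 42.5 TPM in lux and 1.08 and 0.514 TPM in WT (5.88 ± 0.59, adjusted p = 7.59e-11). Os01g0313300 held 78.6, 49.6 and 35.7 TPM and 1.76 and 0.637 TPM (5.31 ± 0.37, adjusted p = 1.52e-15), and Os04g0482300 held 93.2, 82.7 and 62.5 TPM and 1.97 and 1.11 TPM (5.47 ± 0.35, adjusted p = 3.05e-16). The lux libraries of the first 2 genes were above the WT libraries of ZT14 LD, and those of Os04g0482300 overlapped them. Os02g0129300 was lower, at 18.6, 19 and 18.2 TPM in lux and 85.8 and 94.2 TPM in WT (-2.51 ± 0.14, adjusted p = 2.80e-18). For Os08g0249000 the log2 difference from WT was 3.41 ± 0.44 in lux and 3.24 ± 0.47 in elf3 at the same time, and for Os09g0287000 it was 3.77 ± 0.71 in elf3. The lux and elf3 comparisons share their WT libraries. Other members differed between the 2 mutants. Os01g0313300 and Os03g0766600, higher in lux by 5.31 and 4.86, were called in none of the elf3 comparisons with WT. At ZT14 SD 15 members were higher and 2 lower in elf3, against 33 higher and 86 lower in lux. When every library was taken under its label 78 members passed in lux.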

How the data were processed

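The authors deposited 2 tables over 37849 genes: raw read counts per gene and TPM values. Per the submitters' processing notes HISAT2 and StringTie were used with genome IRGSP-1.0; versions, roles and strand setting are not given in the sources used here. ZT24 libraries are the columns headed ZT00. Of the columns of each table, 1 matches no labelled sample and was not used. Levels are the deposited TPM; tests used the deposited counts in edgeR 4.0.16 (R 4.3.3): filterByExpr, TMM factors (0.789 to 1.23), robust glmQLFit over 57 libraries in 25 groups (32 residual degrees of freedom), glmQLFTest and Benjamini-Hochberg adjustment over 28905 genes at 0.05. All 148 members passed the filter. Log2 differences are from this fit, with standard errors derived from its F statistic.

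The members and lists were chosen with earlier results of these data known. Genes named are the 4 largest changes in each direction past the threshold whose libraries do not overlap, and those with the largest swing; the rule's demand for a symbol could not be met. The most abundant member, members called in the most conditions and the genes with a second LD peak at ZT2 were chosen after their values were seen. The fit did not pair libraries by replicate number. Correlations of deviations between libraries of the same number ran from -0.09 to 0.16, which does not exclude a pairing. Product classes, promoter and protein sequences were not analysed here. The procedure was tested on simulated counts for elf3 against WT at ZT18 SD alone, with changes placed in well-counted genes. That setting does not cover the smaller groups, the low counts or the differences between times of these data.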

Additional observations from a re-analysis of the deposited data

Results flagged for a closer look

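The difference between LD and SD at ZT14 itself differed between genotypes in 27 members for elf3 against WT and in 36 for phyb against WT (interaction tests in edgeR). In elf3 the log2 difference of differences was 5.61 for Os01g0186900, 5.37 for Os02g0677300, 5.13 for Os09g0522000 and 3.38 for Os04g0684900, so that LD minus SD was more positive in elf3 than in WT for these 4. It was -3.72 for Os09g0287000, -3.29 for Os05g0555600, -2.61 for Os02g0115700 and -2.60 for Os08g0249000. In phyb it was 2.30 for Os02g0162600, 1.35 for Os03g0569800, 0.88 for Os10g0421800 and 0.77 for Os01g0810100, and -3.39 for Os01g0313300, -3.16 for Os03g0170100, -2.90 for Os03g0766600 and -2.52 for Os01g0389700.

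Among the mutant libraries left out, 5 held the set at a higher level than any kept WT library of the same time and day length. The library labelled elf3 ZT6 LD replicate 1 stood at a median of 117.9% of the WT ZT10 mean, against 36.2% and 49.5% in its kept replicates and 35.4% and 36.5% in WT. In it Os01g0186900 held 1378 TPM and Os09g0522000 397 TPM, whereas the kept WT libraries of ZT10 SD held 1026 and 1082 TPM, and 445 and 430.1 TPM. Over the 3000 most variable genes that library lay nearest to WT ZT10 SD. The library labelled elf3 ZT14 SD replicate 1 stood at 54.0%, against 25.6% and 26.2% in its kept replicates and 21.4% and 22.6% in WT, and lay nearest to WT ZT14 LD. Replicate 1 of phyb stood at 38.5% at ZT6 LD, 42.2% at ZT6 SD (kept WT 39.7% and 40.4%) and 24.4% at ZT14 SD, each nearest to the elf3 group of the same time and day length. On the phyb marker scale the left-out phyb libraries of ZT6 and ZT14 sat at 0 and the kept ones at 0.935 to 1.0. A matching elf3 scale was set by 50 marker genes at ZT18. There the left-out phyb libraries sat at 0.946 to 1.012, the left-out elf3 ones at 0.057 to 0.066 and the kept elf3 ones at 0.959 to 1.079. The left-out WT libraries of ZT2, ZT10 and ZT24 sat at 0 to 0.04 on the phyb scale and at 0.032 to 0.209 on the elf3 scale. It was thus the left-out libraries of ZT6 and ZT14 that did not carry the marker levels of their labelled genotype. How this came about was not tested.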

How the results depend on the processing

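The counts of members called kept within 1.5 times under another normalization (edgeR RLE), without the filter on low counts and under DESeq2. Keeping every library under its label moved most of them: elf3 against WT to 66 at ZT6 LD, 0 at ZT6 SD, 0 at ZT14 LD, 4 at ZT18 LD and 8 at ZT18 SD; phyb against WT to 0 at ZT6 LD, ZT6 SD, ZT14 LD, ZT14 SD and ZT18 SD and to 7 at ZT18 LD; lux to 78; LD against SD to 6 at ZT10 and 18 at ZT18 in WT and to 4 at ZT14 in elf3; ZT18 against ZT6 LD in phyb to 58; and both interactions to 0. This setting returns the 17 left-out libraries, most of which lay nearer to another group than to their own. It also turned the sign of 11 of the 183 named results. These were log2 differences of 0.062 (Os09g0530275), 5.07 (Os04g0571600), 0.62 (Os01g0757200) and 0.26 (Os02g0186800) for elf3 at ZT6 LD, and 0.62 (Os05g0555600) and 1.81 (Os09g0287000) for phyb at ZT6 LD. The others were -0.15 for Os02g0186800 at ZT10 between day lengths, -1.79 (Os03g0582000), -3.70 (Os02g0703600) and -3.32 (Os04g0684900) for ZT18 against ZT6 in elf3 LD, and -0.27 for Os04g0684900 in phyb SD. A further 113 no longer passed. Fitting the compared groups alone gave, for elf3 against WT, 0 at ZT6 LD (44 at an unadjusted p under 0.05), 16 at ZT6 SD, 14 at ZT14 LD and 8 for the interaction, with fewer samples behind the spread. The main fit did not pair libraries by replicate number. With a replicate block the count for elf3 at ZT14 LD was 55, and every other count stayed within 1.5 times. In that setting 1 of the 183 named results no longer passed.

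Leaving out each library in turn gave, for elf3 against WT, 8 to 44 members at ZT6 LD, 27 to 52 at ZT6 SD, 15 to 34 at ZT14 LD, 10 to 17 at ZT14 SD, 22 to 37 at ZT18 LD and 10 to 32 for the interaction. For phyb against WT it gave 38 to 46 at ZT6 LD, 28 to 34 at ZT6 SD, 34 to 54 at ZT14 LD, 24 to 43 at ZT14 SD, 29 to 37 at ZT18 SD and 19 to 32 for the interaction. The cause was not tested. Of the choice of members, 139 to 148 were shared with each selection that leaves out 1 library. Groups of 2 and 3 libraries limit every count, and counts near 0 TPM limit the log2 differences of low genes.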
